A study of Mus musculus with 13 samples.

Results

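The netrins, Slits, semaphorins and ephrins, together with the receptors that read them, form the main families of axon guidance molecules. Their genes were taken by name from the probe sets of the array. A probe set was included when its gene symbol began with Sema, Efna, Efnb, Plxna, Plxnb, Plxnc, Plxnd, Unc5 or Robo, or was Epha or Ephb followed by a number. The symbols Nrp1, Nrp2, Slit1, Slit2, Slit3, Ntn1, Ntn4 and Dcc were included as well. The rule gave 154 probe sets for 69 genes, of 45037 probe sets other than controls and 18193 genes with a symbol of their own. By family, these were 13 Eph receptors, 8 ephrins, 20 semaphorins, 9 plexins, 2 neuropilins, 5 netrin receptors, 2 netrins, 3 Slits and 4 Robo receptors. The other 3 genes carry matching letters without being guidance proteins by name (Unc50, Unc5cl and Plxna4os1). Ephb2 had no probe set in the annotation used here. Filtering on low values, described below, left 59 of the 69 genes, with 105 probe sets.

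The study measured RNA from mouse medulloblastomas and from the normal tissues in which such tumours may begin. Affymetrix expression arrays were hybridised with RNA from 13 samples, each taken from a different mouse, and all tissues were untreated. There were 6 primary medulloblastomas that arose in Ptch1+/- mice, in which the Hedgehog pathway is released from its receptor's brake. The wildtype groups were 3 samples labelled as granule neuron precursor cells of the cerebellum (GNPC) at postnatal day 7 and 4 samples of the dorsal brainstem (DBS) from E16.5 embryos. Whether the GNPC samples were purified precursors or whole tissue, and the mouse age at tumour collection, were not given in the sources used here. A tumour or tissue sample holds several cell types, and fewer cells of a type and less RNA per cell cannot be told apart in such RNA.

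Guidance cues are proteins that growing axons and migrating neurons read as attraction or repulsion. Netrins are secreted and attract through Dcc, whereas receptors of the Unc5 group turn the response to repulsion, and Slits repel through Robo receptors. Secreted class 3 semaphorins act through neuropilins paired with plexins, most membrane-bound semaphorins bind plexins directly, and ephrins signal between touching cells through the Eph receptor kinases. In the young cerebellum these families steer the tangential and inward migration of granule cells, and in the brainstem they steer commissural and precerebellar neurons.

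The values are linear intensities from the MAS5 algorithm, scaled by the submitters so that every array has the same trimmed mean. Differences were tested on log2(intensity + 18) with limma across 12270 genes, each represented by its brightest probe set. A gene was called when its Benjamini-Hochberg adjusted p was under 0.05 and its difference was at least 1 on the log2 scale, which is a fold of at least 2. An intensity depends on the probe set, so levels are compared between samples and never between genes.

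Some properties of the samples stood beside every comparison. Markers of granule neuron precursors averaged 11.55 to 11.73 (log2 scale) in the tumours, 10.33 to 10.52 in GNPC and 8.29 to 8.57 in DBS, and markers of brainstem neurons averaged 10.24 to 10.32 in DBS against at most 7.56 elsewhere. The samples labelled GNPC also held signal of other cerebellar cells. Their 7 measured Purkinje cell markers averaged 12.12 to 12.48, against 9.09 to 9.42 in DBS and 6.65 to 10.52 in the tumours, and tumour 2 had the highest tumour value. DBS 2 stood apart in RNA quality, with a 3' to 5' ratio of control transcripts of 2.43 on the log2 scale against 1.23 to 1.70 in the other DBS samples. The ratio was higher in the tumours (1.39 ± 0.0986, SD, n = 6) than in GNPC (1.16 ± 0.0453, SD, n = 3), with an exact two-sided permutation p of 0.0119 (0.0357 after Benjamini-Hochberg adjustment over 3 comparisons). The part of these properties in the results was not tested. Counts without tumour 2 and without DBS 2 are given with the family counts.

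Among the guidance genes called in the tumours, those lower outnumbered those higher against each normal tissue. Against GNPC, 24 of the 59 tested genes were lower in the tumours, 5 were higher and 30 did not pass, so that 49.2% were called, against 20.7% of all tested genes. The lower calls stood against a background of 14.1% and the higher calls against 6.54%. The median difference over the 59 genes was -0.59, beside -0.03 over all genes. Against DBS, 29 were lower in the tumours, 5 were higher and 25 did not pass, which is 57.6% called against 36.1% of all genes, with backgrounds of 20.8% for lower and 15.4% for higher calls. The median was -0.95 for the 59 genes and 0.00 for all genes. Between the normal tissues, 18 genes were lower in GNPC than in DBS, 9 were higher and 32 did not pass, which is 45.8% called against 18.2% of all genes, with backgrounds of 9.54% and 8.70%. The median was -0.39, beside 0.04 for all genes. Groups that did not overlap at all were found in 33 of the 59 genes for tumours and GNPC (background 44.9%), 35 for tumours and DBS (56.0%) and 45 for GNPC and DBS (55.8%). The 3 comparisons share samples in pairs, so their counts are not independent of each other.

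The genes that passed the filter include some that passed only through the tissue where they are high, and these 59 are not the whole set. Among these, Epha2 passed in 4 arrays, all of tumours, and Unc5a in 4 arrays, all of DBS. With no filter, 5 genes were higher and 23 lower in the tumours against GNPC, and 5 higher and 32 lower against DBS, among the 69. All genes without the filter were called at 14.8% and 26.7% in these comparisons. Without tumour 2, the counts were 5 higher and 23 lower against GNPC and 5 higher and 28 lower against DBS. Without DBS 2, the tumours had 5 higher and 29 lower genes against DBS, and GNPC had 9 higher and 15 lower. Scaling every array to the same median, in place of the same trimmed mean, moved the median of all genes from -0.03 to 0.21 for tumours minus GNPC, from 0.00 to 0.12 for tumours minus DBS and from 0.04 to -0.07 for GNPC minus DBS. The share of higher calls among all genes called then rose from 31.7% to 48.8% in the first comparison, and fell from 47.7% to 38.1% in the last. Under that scaling 6 guidance genes were higher and 19 lower in the tumours than in GNPC, 5 were higher and 28 lower than in DBS, and 6 were higher and 19 lower in GNPC than in DBS. The calls lost under it were Sema4a, Sema4f, Sema6d, Unc5a and Plxnb3 against GNPC, Ephb6 against DBS, and Sema6a, Plxnb3 and Plxnd1 between the normal tissues.

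**Figure D1:**
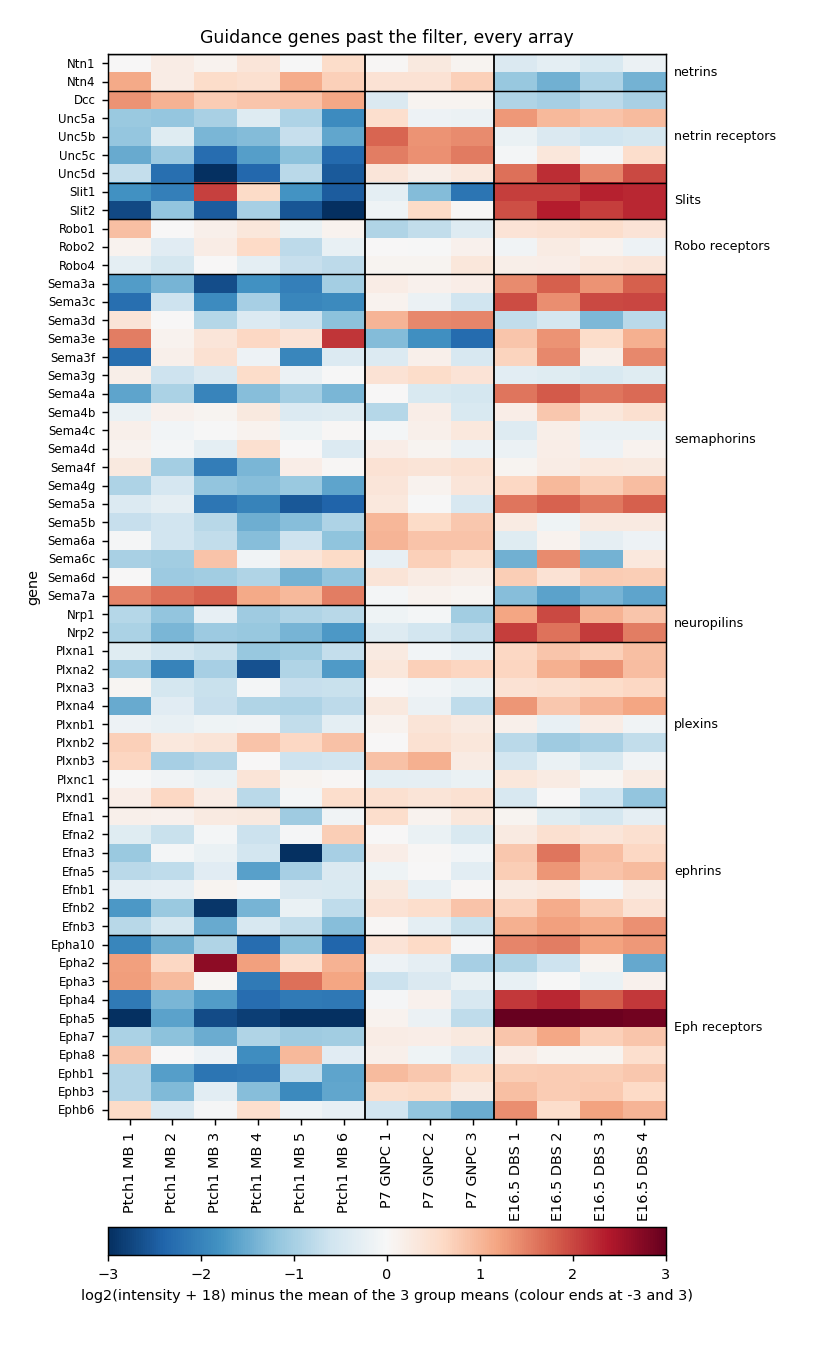
Level of each of the 59 tested genes except Unc50, which is not drawn (rows, grouped by family). Columns are the 13 samples (tumours, MB, then GNPC, then DBS). Values are log2(intensity + 18) minus the mean of the gene's 3 group means. The 9 genes that fell stepwise, such as Epha5 and Slit2, run from red in DBS to blue in the tumours, while Dcc, Epha2 and Sema7a are reddest in the tumours.

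In 19 of the 59 genes the tumours were called lower than both normal tissues, which is 32.2%, against 11.0% of all tested genes. These were the netrin receptors Unc5a, Unc5c and Unc5d, the ligand Slit2, the semaphorins Sema3a, Sema3c, Sema4a, Sema4g, Sema5a, Sema5b and Sema6d, the plexin Plxna2, the ephrin Efnb2, and the Eph receptors Epha4, Epha5, Epha7, Epha10, Ephb1 and Ephb3. Both comparisons use the same tumour samples. Only Dcc, Epha2 and Sema7a among the 59 were higher than in both tissues, which is 5.1%, beside a background of 5.37%. Of the genes in these counts, Epha2 passed the filter only through tumours and Unc5a only through DBS. A stepwise order with DBS highest, GNPC between and the tumours lowest, with every step called, was found in 9 genes, or 15.3%, against 3.50% of all genes. These were Epha4, Epha5, Epha10, Sema3a, Sema3c, Sema4a, Sema5a, Slit2 and Unc5d. The call between GNPC and DBS was lost under at least 1 alternative processing for Epha10, Slit2 and Unc5d. The call between tumours and GNPC was lost in the same way for Sema4a and Sema5a. Sema7a was called in every comparison in the opposite order. With Ephb6 and Unc5c, 12 genes were called in all 3 comparisons, which is 20.3%, against 6.02% of all genes. GNPC stood above both other groups in Unc5b, Unc5c, Sema3d, Sema6a and Plxnb3 (8.5%, background 1.79%) and below both in Sema3e and Ephb6 (3.4%, background 0.456%). In 17 genes, or 28.8%, none of the comparisons was called, against 58.1% of all genes.

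The sequence around the start of transcription is shown for a gene of each main pattern: Sema7a, highest in the tumours; Epha5 and Slit2, which fell stepwise from DBS to the tumours; and Unc5c, highest in GNPC. Each run is 250 bases before to 50 after the start, 5′ to 3′ on the gene's strand, from RefSeq on mouse build GRCm38.p6. The windows are Sema7a at chr9:57939862-57940161 (plus strand), Epha5 at chr5:84417333-84417632 (minus strand), Slit2 at chr5:47982905-47983204 (plus strand) and Unc5c at chr3:141465314-141465613 (plus strand). Capitals mark matches, on either strand, to a Gli site (GACCACCCA), an E-box (CAGCTG) or a GC box (GGGCGG), and no matches overlap in these windows.
Sema7a: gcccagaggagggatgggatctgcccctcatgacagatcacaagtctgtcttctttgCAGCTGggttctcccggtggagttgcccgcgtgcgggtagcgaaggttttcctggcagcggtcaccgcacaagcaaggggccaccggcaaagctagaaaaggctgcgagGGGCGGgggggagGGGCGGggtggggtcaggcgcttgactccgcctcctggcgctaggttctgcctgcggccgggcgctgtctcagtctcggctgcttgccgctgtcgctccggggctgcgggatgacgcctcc
Epha5: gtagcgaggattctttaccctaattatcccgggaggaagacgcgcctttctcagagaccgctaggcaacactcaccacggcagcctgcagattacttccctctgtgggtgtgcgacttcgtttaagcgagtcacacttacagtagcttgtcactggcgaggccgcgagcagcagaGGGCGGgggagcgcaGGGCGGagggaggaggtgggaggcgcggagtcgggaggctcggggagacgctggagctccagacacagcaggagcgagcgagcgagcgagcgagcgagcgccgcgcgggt
Slit2: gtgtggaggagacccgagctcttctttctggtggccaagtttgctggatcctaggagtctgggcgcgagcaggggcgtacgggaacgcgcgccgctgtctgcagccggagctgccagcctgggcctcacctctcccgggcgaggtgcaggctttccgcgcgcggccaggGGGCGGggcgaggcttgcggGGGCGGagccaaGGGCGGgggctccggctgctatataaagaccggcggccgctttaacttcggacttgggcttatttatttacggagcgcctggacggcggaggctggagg
Unc5c: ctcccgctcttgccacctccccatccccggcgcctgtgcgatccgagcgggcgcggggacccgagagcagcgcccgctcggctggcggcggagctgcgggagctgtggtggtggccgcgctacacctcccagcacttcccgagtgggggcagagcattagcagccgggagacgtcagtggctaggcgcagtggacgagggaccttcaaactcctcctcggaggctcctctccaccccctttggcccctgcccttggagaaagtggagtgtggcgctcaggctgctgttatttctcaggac
The Sema7a window held 1 E-box and 2 GC boxes, the Epha5 window 2 GC boxes, the Slit2 window 3 GC boxes and the Unc5c window no match to any of these letters. RefSeq windows were found for 58 of the 69 genes, 74 windows in all. GC boxes were in 54 of these 74 windows (73.0%), against 35.7% of the 32851 windows of all genes. E-boxes were in 11 (14.9%, against 16.3%), and the Gli letters were in 0 of 74, against 0.253% of all windows. A match is a description of the letters and not a site of binding.

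The netrin receptors divided the groups in opposite directions. Of 5 tested, Dcc was higher in the tumours than in GNPC and the 4 Unc5 receptors were lower. Against DBS the counts were 1 higher, 3 lower and 1 not passed, and in GNPC against DBS 2 higher, 1 lower and 2 not passed. Of all genes, 6.54%, 15.4% and 8.70% were called higher in these comparisons, and 14.1%, 20.8% and 9.54% lower. With 5 genes, 1 call is already a large share, so a single call says little beside these backgrounds. Dcc, the receptor through which netrin-1 attracts axons, gave 3807, 4339 and 5713 as the lowest, median and highest intensity of the 6 tumours. GNPC gave 1654, 2383 and 2373, and DBS gave 1195, 1107, 1283 and 1124. Every tumour lay above every GNPC sample, and every GNPC sample above every DBS sample. The tumours exceeded GNPC by 1.08 ± 0.15 (log2, SE), or 2.12-fold, with an adjusted p of 3.55e-05 (limma), and DBS by 1.92 ± 0.13, with an adjusted p of 9.90e-09. The call against GNPC rested on GNPC 1, without which the difference was 0.91. GNPC against DBS missed the size threshold at 0.83 ± 0.16. A second Dcc probe set was also called higher in the tumours in both comparisons, by 1.20 and 1.68.

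Unc5c, a repulsive netrin receptor whose loss misplaces granule cells in the mouse, ran from 186 through a median of 325 to 459.6 in the tumours. It read 2934, 2648 and 2993 in GNPC and 971, 1283, 987 and 1449 in DBS. The 3 groups did not overlap, with GNPC highest and the tumours lowest. The tumours were below GNPC (log2 -3.17 ± 0.25, SE, adjusted p = 5.31e-07) and 3.68-fold below DBS (-1.88 ± 0.23, adjusted p = 3.73e-06), and GNPC was 2.45-fold above DBS (limma). A second Unc5c probe set was also called lower in the tumours than in GNPC (-2.92) and DBS (-2.04). It did not pass in GNPC against DBS (0.88).

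Unc5b, known also from guidance of vessels, gave 195, 247 and 469.7 as the lowest, median and highest tumour intensity. GNPC read 2083, 1574 and 1657, and DBS read 522, 440.3, 396 and 414. GNPC stood apart from both other groups, while the highest tumour, tumour 2, lay inside the DBS range. The tumours were 6.00-fold below GNPC (-2.58 ± 0.23, adjusted p = 1.09e-06, limma), and the difference from DBS did not pass (-0.63 ± 0.21). A second, dimmer probe set of Unc5b differed by -0.96 between tumours and GNPC and did not pass.

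Unc5d, a further repulsive receptor, ranged widely in the tumours, from 13.9 through 85.2 to 292. GNPC read 643, 561 and 617, and DBS read 1582, 2367, 1405 and 1999. Tumours 1 and 5 were the high ones at 292 and 274, and all tumours still lay below GNPC. The tumours were lower than GNPC (-2.40 ± 0.53, adjusted p = 0.00173) and 15.4-fold below DBS (-3.94 ± 0.48, adjusted p = 3.70e-06, limma). GNPC was lower than DBS (-1.54 ± 0.57, adjusted p = 0.0399, limma), a call lost without any single GNPC sample and without DBS 1, 2 or 4. Unc5a was dim everywhere, at 6.7 to 51.7 in the tumours, 112, 65.1 and 63.2 in GNPC, and 207, 161, 147 and 158 in DBS. Its groups did not overlap either, and it was called lower in the tumours against DBS (-2.09 ± 0.26, adjusted p = 5.29e-06) and against GNPC (-1.14 ± 0.29, adjusted p = 0.00473), the latter lost without tumour 6 or without GNPC 1.

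Neither netrin was called lower in the tumours. Ntn1, the floor plate netrin that binds Dcc and the Unc5 receptors, gave 426, 485 and 635 in the tumours (lowest, median, highest), 442, 531 and 459 in GNPC, and 315, 347, 311 and 379.6 in DBS. Tumours and GNPC overlapped and both lay above DBS, but no Ntn1 difference passed the size threshold. Ntn4, a netrin built into basement membranes, read 1091, 1465 and 2062 in the tumours, 1259, 1269 and 1535 in GNPC, and 415, 333, 485 and 336 in DBS. DBS stood below every other sample. Ntn4 was 3.81-fold higher in the tumours than in DBS (1.93 ± 0.18, adjusted p = 1.93e-07) and 3.37-fold higher in GNPC than in DBS (1.75 ± 0.21, adjusted p = 1.54e-05), and tumours and GNPC did not pass (0.18 ± 0.20, limma).

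**Figure D2:**
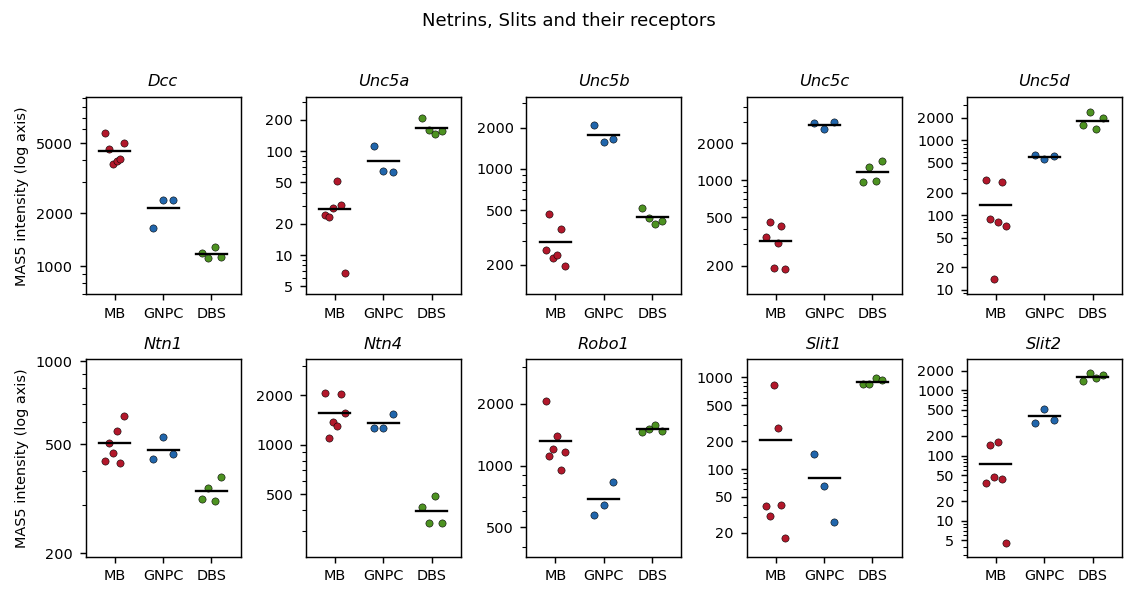
Intensity (log axis) of netrin receptors, netrins, Robo1 and Slits in each of 6 tumours (MB), 3 GNPC and 4 DBS samples. Points are samples and bars are group means of the intensities; Dcc is highest in the tumours, Unc5b and Unc5c are highest in GNPC, and Slit1 varies from 17.6 to 826 among the tumours.

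Slit ligands were highest in DBS. Slit2, a secreted repellent of commissural axons, gave 4.5, 45.3 and 164 in the tumours, 316, 526 and 353 in GNPC, and 1375, 1852, 1521 and 1732 in DBS. The 3 groups did not overlap, and tumours 2 and 4 were the higher tumours. Slit2 was 22.4-fold lower in the tumours than in DBS (-4.49 ± 0.45, adjusted p = 4.12e-07), 5.60-fold lower than in GNPC (-2.49 ± 0.49, adjusted p = 0.000737), and 4.00-fold lower in GNPC than in DBS (limma). The last of these calls was lost with a pseudocount of 1 in place of 18, at -2.05.

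Slit1, a related repellent of the nervous system, read 39.6, 30.8, 826, 284, 40.0 and 17.6 in tumours 1 to 6. It read 147, 64.5 and 26.5 in GNPC and 841, 839, 983 and 945 in DBS. Tumour 3 came close to the DBS samples, tumour 4 lay between, and the other 4 tumours were within or below the GNPC range. Slit1 was lower than in DBS both in the tumours (-3.10 ± 0.73, adjusted p = 0.00156) and in GNPC (-3.44 ± 0.87, adjusted p = 0.00514, limma), and the tumours against GNPC did not pass. Slit3 did not pass the filter, with intensities from 2.6 to 58.3 over the 13 samples.

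No Robo receptor was called between the tumours and either normal tissue. Robo1, the main Slit receptor of commissural axons, gave 946, 1188 and 2047 in the tumours, 576, 641 and 834 in GNPC, and 1452, 1510.3, 1570.2 and 1464 in DBS. Its tumours lay above GNPC without overlap and spanned the DBS values. GNPC was 2.19-fold below DBS (-1.13 ± 0.21, adjusted p = 0.000549, limma), and the tumours differed by 0.89 ± 0.19 from GNPC and by -0.23 ± 0.18 from DBS, neither called. A second Robo1 probe set gave other values: it was called lower in the tumours than in GNPC (-1.14) and DBS (-3.95). The direction of Robo1 against GNPC therefore depended on the probe set read, and against DBS both were negative and differed in size and call. Robo2, also a Slit receptor, read 197 to 537 in the tumours, 348 to 383 in GNPC and 314 to 414 in DBS, with overlapping groups and no call. Robo4, known from vessels, was not called either, and Robo3 did not pass the filter (1.1 to 54.3 over its 2 probe sets).

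The semaphorins, the family with the most genes tested, held the largest number of lowered genes. Of 18 tested, 10 were lower and 2 higher in the tumours than in GNPC, 8 lower and 1 higher than in DBS, and in GNPC against DBS 5 were lower and 3 higher. Lower calls were 55.6%, 44.4% and 27.8%, beside backgrounds of 14.1%, 20.8% and 9.54%. Higher calls were 11.1%, 5.6% and 16.7%, beside 6.54%, 15.4% and 8.70%. The share of lower calls was larger in the Eph receptors in both tumour comparisons (60.0% and 70.0%). Sema7a, a GPI-anchored semaphorin that binds Plxnc1 and integrins, gave 3585, 5200.4 and 6191 in the tumours, 1745, 1963 and 1882 in GNPC, and 743, 589, 680.1 and 594 in DBS. The lowest tumour was above the highest GNPC sample, and the lowest GNPC sample was above the highest DBS sample. Sema7a was 2.61-fold higher in the tumours than in GNPC (1.38 ± 0.16, adjusted p = 8.86e-06), 7.36-fold higher than in DBS (2.88 ± 0.14, adjusted p = 3.42e-10), and 2.82-fold higher in GNPC than in DBS (limma).

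Sema3e, which signals through Plxnd1 without a neuropilin, had its own order. It read 636, 855 and 2670.2 in the tumours, 229.5, 153 and 105 in GNPC, and 1074, 1529.7, 881 and 1258 in DBS. GNPC lay below all other samples, and tumours and DBS overlapped. Sema3e was 6.38-fold higher in the tumours than in GNPC (2.67 ± 0.38, adjusted p = 5.96e-05) and 6.82-fold lower in GNPC than in DBS (-2.77 ± 0.41, adjusted p = 0.000102, limma). The tumours differed from DBS by -0.09 ± 0.35 with the brightest probe set, while 2 other probe sets of Sema3e were called higher in the tumours than in DBS, by 1.92 and 2.27.

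The secreted repellents Sema3a and Sema3c declined in steps. Sema3a, which collapses growth cones through Nrp1, gave 49.8, 109.6 and 195 in the tumours, 481, 453 and 473 in GNPC, and 1124, 1462, 1064 and 1464 in DBS. None of these groups overlapped. Sema3a was 3.87-fold below GNPC (-1.95 ± 0.27, adjusted p = 4.28e-05) and 10.2-fold below DBS (-3.35 ± 0.25, adjusted p = 1.66e-08, limma) in the tumours. Sema3c, a ligand of both neuropilins, read 64.5, 89.0 and 239 in the tumours, 409, 332 and 244 in GNPC, and 1517, 1029, 1553 and 1587 in DBS. Tumours 2 and 4 were the higher tumours, and tumour 2 came just under the lowest GNPC sample. Sema3c was lower in the tumours than in GNPC (-1.38 ± 0.32, adjusted p = 0.00237) and than in DBS (-3.44 ± 0.29, adjusted p = 6.96e-08, limma).

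Sema3d, a secreted semaphorin, was highest in GNPC. It read 108, 189 and 369 in the tumours, 585, 786 and 796 in GNPC, and 161, 189.5, 99.3 and 152 in DBS. GNPC stood above every other sample, and tumours and DBS overlapped. The tumours were lower than GNPC (-1.76 ± 0.30, adjusted p = 0.000233), GNPC was 4.45-fold above DBS (2.15 ± 0.32, adjusted p = 0.000103), and tumours against DBS did not pass (0.39 ± 0.27, limma).

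Among the membrane-bound semaphorins, Sema6a, which granule cells display and which binds Plxna2 and Plxna4, gave 460.4, 712 and 1119 in the tumours, 2340, 2079 and 2099.8 in GNPC, and 882, 1234, 947 and 1022 in DBS. GNPC was highest without overlap, and only tumour 1 reached into the DBS range. Sema6a was 3.14-fold lower in the tumours than in GNPC (-1.65 ± 0.22, adjusted p = 3.39e-05) and higher in GNPC than in DBS (1.09 ± 0.24, adjusted p = 0.00205), and tumours against DBS did not pass (-0.56 ± 0.20, limma). A second Sema6a probe set was not called, at -0.65 for tumours against GNPC and 0.14 for GNPC against DBS.

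Sema4a, a membrane-bound semaphorin known also from immune cells, read 91.6, 156 and 208 in the tumours, 418, 297 and 285 in GNPC, and 1291, 1538, 1295 and 1387 in DBS. Its groups did not overlap. It was 8.24-fold lower in the tumours than in DBS (-3.04 ± 0.19, adjusted p = 3.37e-09) and 4.02-fold lower in GNPC than in DBS. The tumours also passed against GNPC (-1.04 ± 0.21, adjusted p = 0.000893, limma), a call lost under 7 alternatives. These included scaling to the same median and leaving out GNPC 1, tumour 1 or tumour 3.

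Sema5a, whose thrombospondin repeats let it attract or repel, gave 42.5, 65.2 and 274 in the tumours, 422, 334 and 235 in GNPC, and 1053, 1182, 1045 and 1202 in DBS. Tumours 1 and 2, at 247 and 274, exceeded the lowest GNPC sample, and DBS stood apart. It was lower in the tumours than in DBS (-3.32 ± 0.41, adjusted p = 4.19e-06) and than in GNPC (-1.58 ± 0.45, adjusted p = 0.00943, limma), the latter lost without GNPC 1. The other semaphorins lower in the tumours than in both tissues, Sema4g, Sema5b and Sema6d, differed by -1.20 to -1.75 from GNPC and by -1.13 to -1.92 from DBS, again without overlap. Sema4f was lower than in GNPC (-1.08 ± 0.41, adjusted p = 0.0430, limma), and this call was lost without tumour 2, 3 or 4 and without any single GNPC or DBS sample. Sema3f was lower in the tumours than in DBS, and Sema3g, Sema4b, Sema4c, Sema4d and Sema6c were called in no comparison. A second Sema4d probe set, however, was called lower in the tumours against GNPC (-2.24) and DBS (-1.96).

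**Figure D3:**
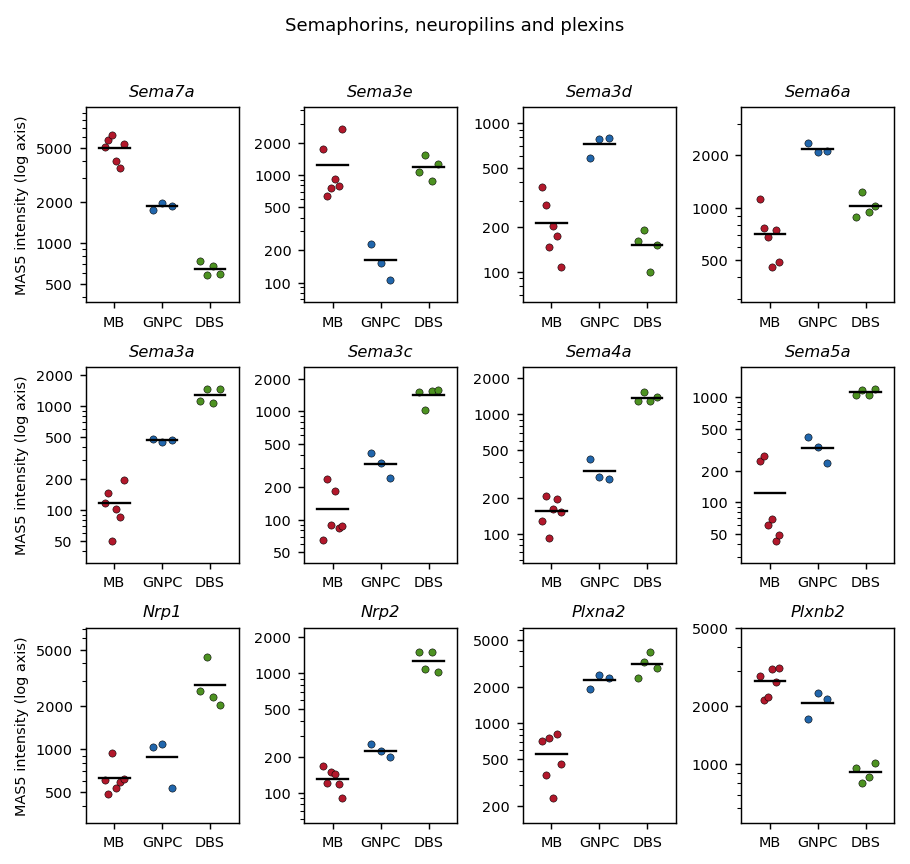
Intensity (log axis) of semaphorins, neuropilins and plexins in each tumour (MB, 6), GNPC (3) and DBS (4) sample, with bars at the group means of the intensities. Sema7a is highest in the tumours, Sema3e is lowest in GNPC, Sema3d and Sema6a are highest in GNPC, and Nrp1 and Nrp2 are highest in DBS.

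The neuropilins set DBS apart from the other groups. Nrp1, which binds Sema3a and also vascular growth factor, gave 487, 601 and 944 in the tumours, 1035, 1084 and 537 in GNPC, and 2568, 4456, 2321 and 2028 in DBS. Nrp2, which binds Sema3f, gave 90.0, 132 and 168 in the tumours, 256, 224 and 198 in GNPC, and 1492, 1089.7, 1502 and 1020 in DBS. Every DBS sample was above every other sample for both, and tumours and GNPC overlapped for Nrp1 but not for Nrp2. In the tumours Nrp1 was 4.30-fold (-2.10 ± 0.24, adjusted p = 2.17e-06) and Nrp2 8.65-fold (-3.11 ± 0.17, adjusted p = 9.90e-10) below DBS. In GNPC they were 3.16-fold and 5.25-fold below DBS (limma). Against GNPC the tumours did not pass for Nrp1 (-0.44 ± 0.27) or for Nrp2 (-0.72 ± 0.19).

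Of the 9 plexins, the receptors of semaphorins, 2 were lower in the tumours than in GNPC and 7 did not pass, and against DBS 3 were lower and 1 higher. In these tumour comparisons 22.2% were called against a background of 20.7%, and 44.4% against 36.1%, which are near the shares of all genes. In GNPC against DBS, 3 were higher and 1 lower, which is 44.4% called against 18.2% of all genes. Higher calls were 33.3% there, beside 8.70%, and lower calls 11.1%, beside 9.54%. Plxna2, the receptor of Sema6a in granule cell migration, gave 234, 583 and 808 in the tumours, 1929, 2535 and 2396 in GNPC, and 2399.5, 3232, 3952 and 2909 in DBS. The tumours lay below all normal samples, and GNPC and DBS overlapped. Plxna2 was 4.35-fold below GNPC (-2.12 ± 0.31, adjusted p = 7.80e-05) and 5.87-fold below DBS (-2.55 ± 0.29, adjusted p = 1.49e-06), and GNPC against DBS did not pass (-0.43 ± 0.34, limma).

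Plxnb2, which granule precursors need for orderly division and migration, went the other way against DBS. It gave 2138, 2731 and 3128 in the tumours, 1708, 2322 and 2154 in GNPC, and 963, 805, 863 and 1011 in DBS. DBS was lowest without overlap, and tumours and GNPC overlapped. Plxnb2 was 2.88-fold higher in the tumours than in DBS (1.52 ± 0.13, adjusted p = 1.01e-07) and 2.23-fold higher in GNPC than in DBS (1.16 ± 0.16, adjusted p = 4.40e-05), and tumours against GNPC did not pass (0.37 ± 0.15, limma). Plxna1 and Plxna4, the neuropilin partners, were lower in the tumours than in DBS, at 2.84-fold and 3.85-fold, and did not pass against GNPC. Plxnb3 was lower in the tumours than in GNPC (-1.13) and higher in GNPC than in DBS (1.06), and Plxnd1, the Sema3e receptor of vessels, was higher in GNPC than in DBS (1.01). Both Plxnb3 calls were lost without GNPC 2, and the second also without GNPC 1 or DBS 1. The Plxnd1 call was lost without GNPC 1, GNPC 3, DBS 3 or DBS 4. Plxna3, Plxnb1 and Plxnc1 were called in no comparison. Plxnc1, a receptor of Sema7a, read 2301 to 3505 in the tumours, 2159 to 2329 in GNPC and 2761 to 3376 in DBS, but another of its 3 probe sets was called higher in the tumours than in DBS (1.21).

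The Eph receptors included the gene with the largest difference of the 59, Epha5. Of 10 tested, 6 were lower and 2 higher in the tumours than in GNPC, and 7 lower and 1 higher than in DBS. In GNPC against DBS, 4 were lower and 0 higher. Of all genes, 14.1%, 20.8% and 9.54% were called lower in these comparisons, and 6.54%, 15.4% and 8.70% higher. The share of lower Eph calls was above its background in each comparison, whereas the share of higher calls against DBS was below its own. Epha5, a receptor of the ephrin-As that maps axons by gradient, gave 36.8, 50.7 and 156 in the tumours, 558, 450.4 and 299 in GNPC, and 4595, 4980.2, 4105 and 3963 in DBS. Each group lay clear of the next, and the highest tumour was tumour 2. Epha5 was 56.7-fold lower in the tumours than in DBS (-5.82 ± 0.28, adjusted p = 2.01e-10), 5.66-fold lower than in GNPC (-2.50 ± 0.30, adjusted p = 1.40e-05), and lower in GNPC than in DBS (-3.32 ± 0.33, adjusted p = 2.47e-06, limma). All 4 Epha5 probe sets were called lower in the tumours than in DBS, with differences of -1.88 to -6.00, and 3 of 4 against GNPC.

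Epha4, which binds ephrins of both classes, gave 48.0, 56.1 and 106 in the tumours, 294, 333 and 213 in GNPC, and 1383, 1531, 1123 and 1388 in DBS. The order was the same and free of overlap, with tumour 2 again the highest tumour. Epha4 was below DBS (-4.04 ± 0.19, adjusted p = 2.10e-10) and below GNPC (-1.82 ± 0.21, adjusted p = 9.80e-06, limma) in the tumours. Epha10, which lacks kinase activity, read 7.1 to 51.9 in the tumours, 154, 179.5 and 109 in GNPC, and 339, 357, 282 and 299.8 in DBS. It was lower in the tumours than in GNPC (-2.03 ± 0.31, adjusted p = 9.54e-05) and than in DBS (-3.07 ± 0.28, adjusted p = 1.65e-07, limma), and its groups were also distinct. Its step from DBS to GNPC (-1.05) was lost without GNPC 3 or DBS 2.

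Ephb1, a receptor of the ephrin-Bs, gave 229.6, 350.2 and 667 in the tumours, 2153, 1947 and 1643 in GNPC, and 1859.7, 1901, 1854 and 1961 in DBS. The normal tissues overlapped and the tumours were below both. Ephb1 was 4.90-fold below GNPC (-2.29 ± 0.28, adjusted p = 1.34e-05) and 4.88-fold below DBS (-2.29 ± 0.25, adjusted p = 1.20e-06, limma). Epha7 and Ephb3, receptors of ephrin-As and ephrin-Bs, were also lower in the tumours, at -1.35 and -1.67 from GNPC and -1.99 and -1.97 from DBS. None of their groups overlapped, and GNPC lay between the tumours and DBS. All 4 Epha7 probe sets were called lower in the tumours, by -1.35 to -2.84 from GNPC and -1.99 to -4.00 from DBS. Of these, 1 was also called lower in GNPC than in DBS (-1.16).

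Epha2 and Ephb6 were higher in the tumours than in GNPC. Epha2, an ephrin-A receptor of epithelia, gave 79.6, 132 and 421 in the tumours, 43.4, 38.9 and 16.0 in GNPC, and 18.3, 26.5, 54.6 and 5.6 in DBS. Tumour 3 was the highest, and all tumours were above all normal samples, which overlapped. Epha2 passed the filter only through tumours, the group where it is high. Epha2 exceeded GNPC by 1.69 ± 0.44 (adjusted p = 0.00563) and DBS by 1.96 ± 0.40 (adjusted p = 0.000526, limma). Of 9 measured markers of microglia and macrophages, 7 were also called higher in the tumours against each tissue (77.8%, beside 6.54% and 15.4% of all genes). Their mean level was 9.15 to 10.54 in the tumours, 8.72 to 8.93 in GNPC and 8.34 to 8.50 in DBS. Tumour 3, the highest in Epha2, had the lowest of these tumour means (9.15). Tumour 6 had the highest (10.54), with Epha2 at 123. The part of these markers in the Epha2 result was not tested.

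Ephb6, which also lacks kinase activity, gave 103, 138 and 228 in the tumours, 93.1, 54.7 and 40.4 in GNPC, and 417, 221, 361 and 313 in DBS. GNPC was below every other sample, and the highest tumour just passed the lowest DBS sample. It was higher in the tumours than in GNPC (1.12 ± 0.28, adjusted p = 0.00386) and lower in GNPC than in DBS (-2.12 ± 0.30, adjusted p = 5.95e-05, limma). The first of these calls was lost without GNPC 3, at 0.91. The tumours were called lower than DBS at the edge of the size threshold (adjusted p = 0.00241, limma), a call lost without tumour 2, 3, 5 or 6 or without DBS 1 or 3. Epha3 and Epha8 were called in no comparison. Epha3 ranged from 202 in tumour 4 to 3026 in tumour 5, while the normal samples lay between 598 and 1028. Another of the 3 Epha3 probe sets was called higher in the tumours than in DBS (1.05).

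The ephrins, the ligands of these receptors, differed mainly from DBS. Of 7 tested, 1 was lower in the tumours than in GNPC and 6 did not pass, 4 were lower than in DBS, and 0 were higher in either. Lower calls were thus 14.3% against GNPC, beside a background of 14.1%, and 57.1% against DBS, beside 20.8%. Efnb2, a transmembrane ligand of Ephb receptors and of Epha4, gave 80.6, 295 and 626 in the tumours, 982, 1054 and 1324 in GNPC, and 1176, 1588, 1224 and 980.4 in DBS. Tumour 3 was lowest and tumour 5 highest, and all tumours were below all normal samples, which overlapped. Efnb2 was 3.89-fold below GNPC (-1.96 ± 0.41, adjusted p = 0.00120) and 4.28-fold below DBS (-2.10 ± 0.37, adjusted p = 0.000150, limma).

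Efnb3, a midline ephrin-B, read 162, 278 and 348 in the tumours, 502, 401 and 302 in GNPC, and 1054, 1191, 1112 and 1315 in DBS. DBS stood above the rest, and tumours and GNPC overlapped. Efnb3 was 4.30-fold lower in the tumours than in DBS (-2.10 ± 0.20, adjusted p = 3.13e-07) and lower in GNPC than in DBS (-1.52 ± 0.24, adjusted p = 0.000167), and tumours against GNPC did not pass (-0.58 ± 0.22, limma). Efna3, a GPI-anchored ligand, read 79.5, 182.8, 165.9, 125.0, 3.3 and 86.5 in tumours 1 to 6, 221, 196 and 181 in GNPC, and 348, 621, 382 and 304 in DBS. Tumour 5 was far below the others with this probe set but not with a second one, and the tumours lay below DBS. Efna3 was called lower in the tumours than in DBS (-2.03 ± 0.48, adjusted p = 0.00163, limma) and did not pass against GNPC (-1.08 ± 0.53). GNPC against DBS did not pass either (-0.94). The second Efna3 probe set was called lower in the tumours than in GNPC (-1.48) and DBS (-3.91), and lower in GNPC than in DBS (-2.43).

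Efna5, an ephrin-A of axon maps, was lower in the tumours than in DBS (-1.79) and lower in GNPC than in DBS (-1.11). The second of these calls was lost without DBS 2. Efnb1, a ligand of Ephb receptors, gave 158, 183 and 238 in the tumours, 276, 187 and 227 in GNPC, and 268, 280.4, 215 and 268 in DBS. Its groups overlapped and no comparison was called, as for Efna1 and Efna2.

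**Figure D4:**
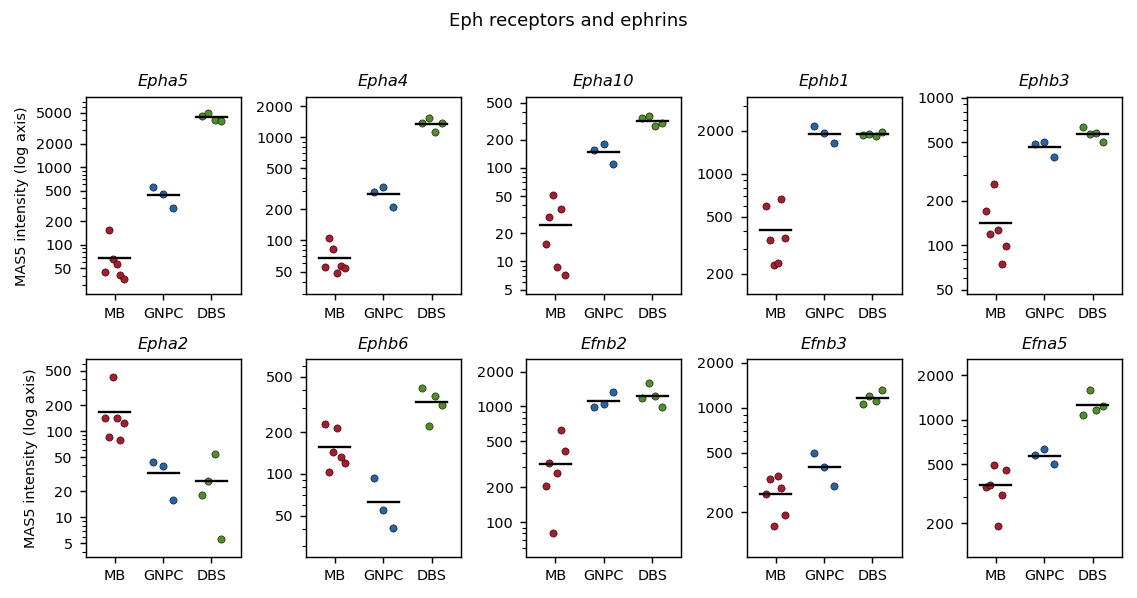
Intensity (log axis) of Eph receptors and ephrins in each tumour (MB, 6), GNPC (3) and DBS (4) sample, with bars at the group means of the intensities. Epha4, Epha5 and Epha10 step down from DBS to GNPC to the tumours, Ephb1 and Efnb2 are low in the tumours alone, and Epha2 is high there.

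The spread among the tumours was described for each gene. The median SD of the 59 genes within a group was 0.47 on the log2 scale in the tumours, 0.22 in GNPC and 0.19 in DBS, beside 0.27, 0.15 and 0.21 over all tested genes. In 16 of the 59 genes the highest tumour was at least 4-fold above the lowest, which was true of 11.2% of all genes. The count was 1 of 59 in GNPC and 2 of 59 in DBS, near the shares of all genes (1.7% and 2.2%). A range widens with the number of samples, and the groups held 6, 3 and 4. Slit1, Slit2, Unc5d, Efna3, Epha3 and Epha8 had tumour ranges above 10-fold, and in Slit1, Slit2, Efna3 and Unc5d the lowest tumour was below an intensity of 20, where a ratio is poorly measured. Sema4c had the tightest tumours among the semaphorins, from 864 to 1054.

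**Figure D5:**
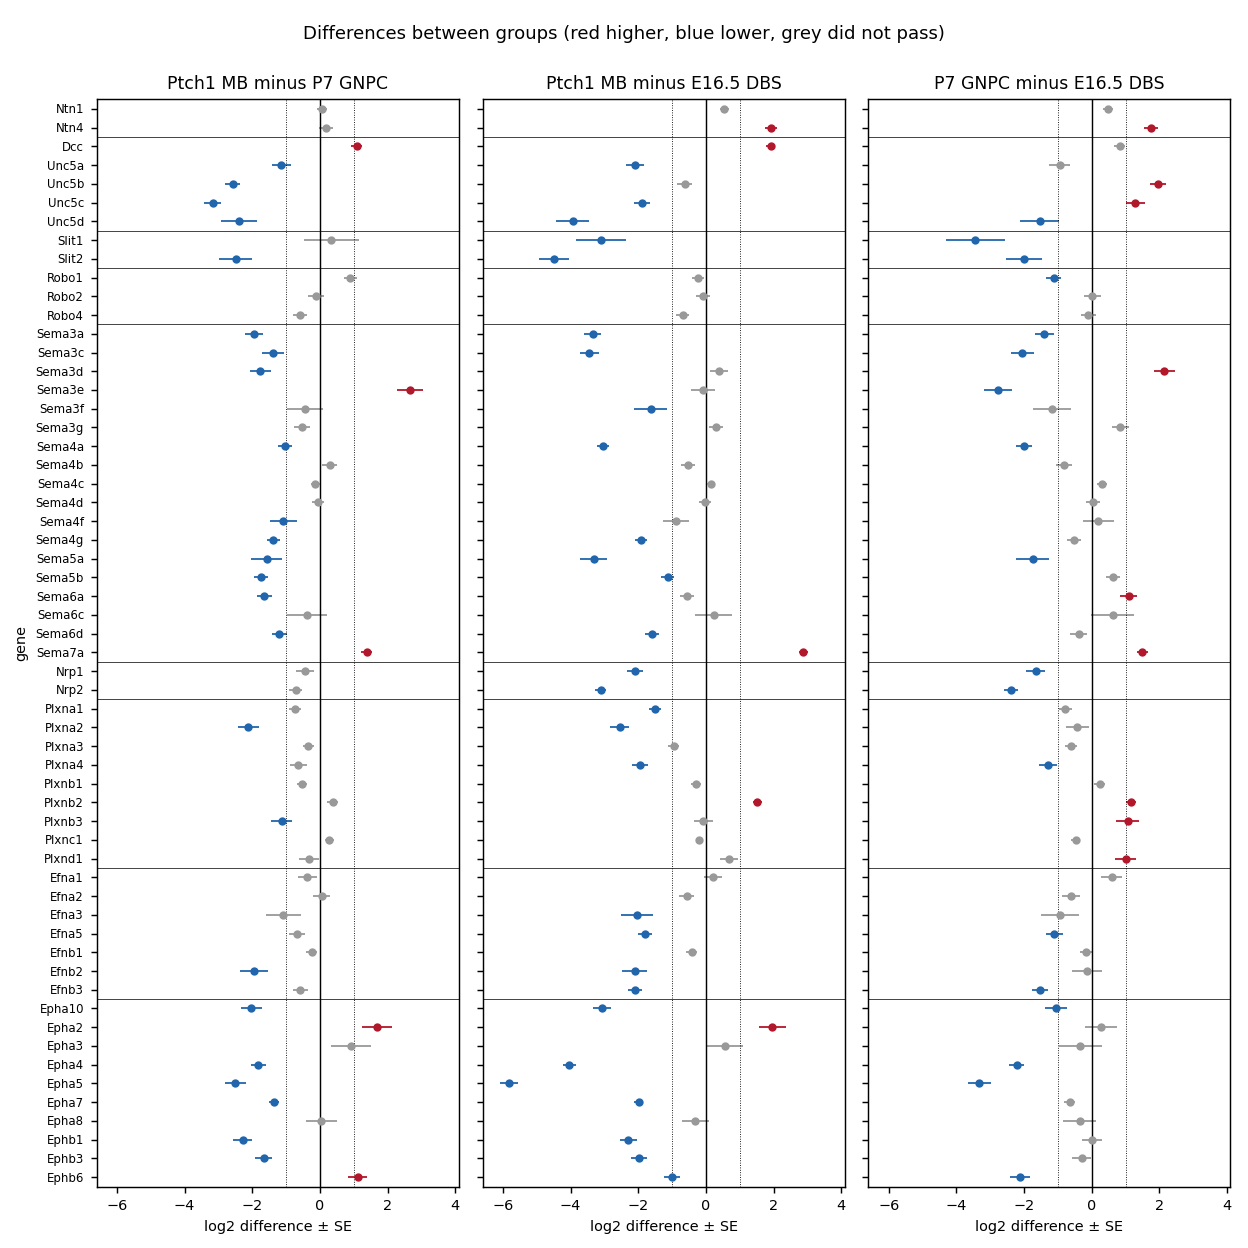
Log2 difference with its standard error for each of the 59 tested genes except Unc50, which is not drawn. Panels are the tumours minus GNPC, the tumours minus DBS and GNPC minus DBS. Red points are called higher, blue points are called lower, grey points did not pass, and dotted lines mark a log2 difference of 1 in either direction. Most called points lie to the left of zero, with medians of -0.59, -0.95 and -0.39 over the 59 genes.

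Each probe set of these genes was also tested on its own. Of the 105 probe sets, 8 were higher and 44 lower in the tumours than in GNPC, against 18.3% of all probe sets called. Against DBS 10 were higher and 58 lower (34.2% of all called), and in GNPC against DBS 10 were higher and 40 lower (17.5%). Among the 30 genes with several probe sets, 0 had probe sets called in opposite directions in the same comparison. The remaining 10 genes of the 69 did not pass the filter. Besides Slit3 and Robo3, these were Efna4, Epha1, Epha6, Ephb4, Sema3b, Sema6b, Unc5cl and Plxna4os1. Unc50, which passed, was called in no comparison.

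Further guidance molecules outside these families were read from a list of 22 genes, of which 20 were measured. Against GNPC, 3 were higher and 8 lower in the tumours, with a median of -0.35, and against DBS 4 were higher and 8 lower, with a median of -0.46. In GNPC against DBS, 4 were higher and 7 lower, with a median of -0.40. These are 55.0%, 60.0% and 55.0% called, beside 20.7%, 36.1% and 18.2% of all genes. Draxin, a secreted repellent that binds Dcc, averaged 7021 ± 1056 (SD, n = 6) in the tumours, 2027 ± 90.5 (n = 3) in GNPC and 579.8 ± 151 (n = 4) in DBS. It exceeded GNPC by 1.77 ± 0.18 (adjusted p = 3.70e-06) and DBS by 3.59 ± 0.16 (adjusted p = 1.48e-10, limma). Cxcr4, the receptor that holds granule precursors at the brain surface, was higher by 1.55 and 3.36, while its ligand Cxcl12 was lower than in GNPC (-1.81). The axonal adhesion molecules L1cam (-2.71 and -3.69) and Chl1 (-2.33 and -3.59) were lower in the tumours than in GNPC and DBS, respectively, and Neo1, a receptor related to Dcc, did not pass in any comparison.

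Intracellular effectors of these receptors were read from a second list. Of 47 listed, 42 were measured, and 2 were higher and 7 lower in the tumours than in GNPC (median -0.33), 2 higher and 13 lower than in DBS (median -0.70), and 1 higher and 6 lower in GNPC than in DBS (median -0.30). The shares called, 21.4%, 35.7% and 16.7%, are near those of all genes (20.7%, 36.1% and 18.2%), so these counts are no result about effectors. Mical1, an oxidoreductase that acts below plexins, was higher in the tumours than in GNPC (3.04) and DBS (2.74), as was Dock1, a Rac exchange factor (1.10 and 1.39). Dpysl3, a collapsin response mediator, differed by -1.73 from GNPC and -2.87 from DBS in the tumours. Ngef, an exchange factor that acts below Epha4, differed by -1.26 and -2.66, and Chn1, a Rac regulator below the same receptor, by -2.38 and -2.46.

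Markers of other cell types were counted in the same comparisons. Of all genes, 14.1% were lower in the tumours than in GNPC. Against DBS, 20.8% of all genes were lower in the tumours and 15.4% higher. Between GNPC and DBS, 9.54% of all genes were lower in GNPC and 8.70% higher. Against GNPC, all 7 measured Purkinje cell markers and 4 of 7 markers of differentiated granule neurons were lower in the tumours, the latter averaging 8.52 to 11.24 in the tumours, 11.33 to 11.51 in GNPC and 9.11 to 9.48 in DBS. Astrocyte and Bergmann glia markers were lower than in GNPC for 6 of 9 (10.23 to 11.30 in the tumours, 12.10 to 12.22 in GNPC and 11.11 to 11.30 in DBS), and oligodendrocyte markers for 5 of 9 (8.43 to 9.97, 9.84 to 10.87 and 9.03 to 9.36). Markers of endothelium were lower for 5 of 9 (7.27 to 8.13, 8.68 to 8.82 and 8.26 to 8.85) and those of meninges and fibroblasts for 7 of 10 (7.49 to 7.77, 9.45 to 9.77 and 8.89 to 9.38). Against DBS, 6 of 7 brainstem neuron markers were lower both in the tumours (5.95 to 7.15) and in GNPC (7.01 to 7.56). Also lower in the tumours than in DBS were 6 of 10 meninges markers, 4 of 9 astrocyte markers (with 2 higher) and 3 of 7 Purkinje cell markers (with 1 higher). Further lower were 3 of 9 endothelium markers, 2 of 9 oligodendrocyte markers and 2 of 7 differentiated granule neuron markers (with 2 higher). The shares called in either direction were 33.3% for endothelium and 22.2% for oligodendrocytes, not above the 36.1% of all genes, so these counts are no result about those cells. In GNPC against DBS, 6 of 7 Purkinje cell, 5 of 9 astrocyte, 5 of 9 oligodendrocyte and 4 of 7 differentiated granule neuron markers were higher. The 5 choroid plexus markers averaged 6.82 to 9.17 in the tumours and 6.49 to 10.19 in DBS, and GNPC 2 stood at 11.04 against 7.81 and 8.31 in the other GNPC samples. No value in the deposited table was 0, so no marker was listed at 0. Their part in the guidance results was not tested.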

How the data were processed

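RNA from 13 mouse samples (6 Ptch1+/- medulloblastomas, 3 wildtype GNPC, 4 wildtype DBS) was hybridised to Affymetrix arrays after a two-cycle labelling, per the labels' protocols. The authors deposited 1 table of linear probe set intensities, made with MAS5 per the submitters' processing notes. With 2% of values trimmed at each end, every array's mean was 500.002 to 500.003, and array medians ran from 91.3 to 117.5. Software version and genome build are not given in the sources used here. Samples were grouped by source name, and samples of a second tumour type named in the study's design were not analysed here.

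Probe sets were named from the platform annotation: 34945 had 1 gene symbol, 932 had several and 9160 had none. Kept were those that exceeded the median of the array in 3 or more of the 13 arrays, and the one with the highest mean log2 value stood for each of 12270 genes. Values were tested as log2(intensity + 18), with 18 the 20th percentile of all values, in limma 3.58.1 (R 4.3.3): a model of 3 group means over all 13 samples, eBayes with a trend on mean level (degrees of freedom 10 residual, 4.5 prior), Benjamini-Hochberg adjustment over all genes, and calls as stated in the report. A fold change on this scale understates that of dim genes. No depth applies to arrays, and 3 to 6 samples a group limit the precision. The script was tested on simulated data. Alternatives covered pseudocounts of 1 and 64, filters, scalings, probe set choice, limma settings and each sample left out.

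The members, gene lists, promoter windows and motifs were chosen with earlier results of these data known. Values by sample were given for members called with a difference of at least 2 on the log2 scale and for a list of members known in hindbrain wiring. Epha2 and other members named with values beyond that rule were chosen after their values were seen.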

Additional observations from a re-analysis of the deposited data

Results flagged for a closer look

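A single sample stood apart from the rest of its group in 5 of the 62 groups of 4 or 6 samples examined for gaps among the named genes. Chance flags about 1 in 20 groups. Each gap was read from the brightest probe set of the gene, and other probe sets did not always show it. Efna3 read 3.3 in tumour 5, against 79.5 to 182.8 in the other tumours. A second Efna3 probe set read 33.3 in tumour 5, inside the 26.4 to 76.6 of the other tumours. Epha5 read 156.4 in tumour 2, against 36.8 to 65.5. Nrp1 read 943.6 in tumour 3, against 487.4 to 618.9. In the other Nrp1 probe sets tumour 6 was the highest tumour instead, at 654.5, 389.7 and 291.2. Among the DBS samples, Efnb1 read 215.3 in DBS 3, against 268.3 to 280.4 in the others, and Sema3c read 1029.4 in DBS 2, against 1517.1 to 1586.5. In a second Efnb1 probe set DBS 3 was instead the highest DBS sample, at 166.1 against 132.9 to 158.5. Tumour 2 was also the tumour with the highest mean of Purkinje cell markers, and DBS 2 the sample with the highest 3' to 5' ratio. The part of these properties in the gaps was not tested.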

How the results depend on the processing

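Every count of higher and lower genes stayed within 1.5 times its value under all alternatives tried. Leaving out 1 sample at a time gave 4 to 6 higher and 20 to 24 lower genes for tumours against GNPC, 5 to 6 and 28 to 31 against DBS, and 8 to 9 and 15 to 19 for GNPC against DBS. Genes called in the same direction against both tissues, 22 with all samples, numbered 18 to 23. Of 90 called differences, 17 lost their call under at least 1 alternative and 0 reversed. Of the other 73, 69 were run and called under every alternative, and 4 (Epha2 in both tumour comparisons, and Unc5a and Sema3f in tumours minus DBS) were called wherever they were run but had no value under the stricter filter or without the probe sets of less specific kinds. Among differences that were not called, Robo1 in tumours minus GNPC was -0.12 as the mean of its probe sets, and Sema3e in tumours minus DBS was 0.03 with arrays scaled to the same median, 1.36 as the mean of probe sets, and -0.35 to 0.06 with 1 sample left out. No paired analysis was run, because each sample came from a different mouse and the labels name no pairing. Low intensities limit what can be read of Epha10, Unc5a, Slit2 and Epha2, and the small groups leave differences near the threshold undecided.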
